A study of Mus musculus with 29 samples.

Results

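The genes described here are the glucocorticoid receptor gene Nr3c1 and 9 genes known as targets that the receptor activates by binding DNA: Fkbp5, Tsc22d3, Zbtb16, Klf9, Klf15, Sgk1, Ddit4, Mt1 and Mt2. They were taken by symbol from the deposited count table, so they are 10 of its 24770 gene symbols, and all 10 passed the filter on low counts in every comparison. RNA was measured in brown adipose tissue (BAT) and gastrocnemius skeletal muscle (SkM) of male, wild-type C57BL/6J mice whose interventions began at 8 weeks of age and lasted 8 weeks. Control mice had chow freely and stayed sedentary, CR mice had their food lowered in steps to 70% of free intake, EX mice ran on a treadmill with free access to chow, and CREX mice had both the lowered food and the running. All mice were fasted before they were killed, a day after the last running bout, so every group carries that fast. BAT was sequenced from 3 control, 4 CR, 4 EX and 4 CREX mice and muscle from 4 control, 3 CR, 4 EX and 3 CREX mice, with 1 library per mouse and tissue. The labels do not say whether BAT and muscle libraries of the same number came from the same mouse. Receptor binding and the hormone itself are not part of these files, so the word target rests on background knowledge of the genes.

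Glucocorticoids, which in mice means mainly corticosterone, cross the cell membrane and bind a receptor held in the cytosol by heat shock proteins and their partners. The bound receptor moves to the nucleus, where it binds palindromic DNA sites called glucocorticoid response elements (GREs) and raises or lowers the transcription of nearby genes. In fat the hormone is known for its control of fat storage and release, in brown fat also of heat production, and in muscle for limiting protein synthesis and glucose use and for promoting protein breakdown. Some targets feed back on the pathway, and Fkbp5, whose product lowers the affinity of the receptor for its hormone, is the best known of these.

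Proximal promoter sequence is shown for 4 members because they carry, or lack, the clearest letter matches to a GRE and to a metal response element (MRE), the site through which metals induce metallothioneins. The sequences are the 250 bases before a start site in RefSeq on the GRCm38.p6 build, which had entries for 8 of the members and 15 start sites. A GRE was searched on both strands as GNACA and TGTNC separated by 3 bases, and an MRE as TGCACNC or TGCGCNC. The capitals mark these matches, and lower case marks everything else.
Mt1, chr8:94178839-94179088, plus strand: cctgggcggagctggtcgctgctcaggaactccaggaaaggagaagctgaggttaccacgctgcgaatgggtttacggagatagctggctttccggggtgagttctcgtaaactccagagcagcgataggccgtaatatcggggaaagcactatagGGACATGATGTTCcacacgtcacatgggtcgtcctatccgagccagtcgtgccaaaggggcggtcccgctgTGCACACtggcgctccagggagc
Mt2, chr8:94172368-94172617, plus strand: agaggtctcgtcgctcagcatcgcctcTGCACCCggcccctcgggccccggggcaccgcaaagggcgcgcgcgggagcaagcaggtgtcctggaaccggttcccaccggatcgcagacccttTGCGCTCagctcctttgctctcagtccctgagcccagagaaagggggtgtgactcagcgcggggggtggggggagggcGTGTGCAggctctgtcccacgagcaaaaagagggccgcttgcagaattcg
Sgk1, chr10:21993640-21993889, plus strand: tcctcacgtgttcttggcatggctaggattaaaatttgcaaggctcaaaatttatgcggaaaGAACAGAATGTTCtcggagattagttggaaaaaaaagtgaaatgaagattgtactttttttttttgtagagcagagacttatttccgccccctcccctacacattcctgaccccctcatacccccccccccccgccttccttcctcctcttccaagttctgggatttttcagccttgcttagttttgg
Fkbp5, chr17:28486150-28486399, minus strand: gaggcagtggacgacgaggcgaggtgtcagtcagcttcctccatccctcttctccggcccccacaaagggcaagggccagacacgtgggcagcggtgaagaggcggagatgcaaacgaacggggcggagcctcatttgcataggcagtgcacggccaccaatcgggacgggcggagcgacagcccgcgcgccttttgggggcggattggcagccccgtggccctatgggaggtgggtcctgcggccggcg
The Mt1 window held 1 GRE match, at positions -94 to -82 from its start site, and 1 MRE match at -23 to -17. The window of 1 of the 6 Sgk1 start sites held a GRE match at -188 to -176, and matches to AGAACA, 1 arm of such a site, overlap both of its ends. Mt2 held 3 MRE matches and no GRE match, while the Fkbp5 window held neither. Of all 32851 promoter windows of this length, 0.387% held a GRE match, 21.4% at least 1 MRE match and 1.26% at least 3 MRE matches. Klf15 and Ddit4 held 1 MRE match each, and no other window of the members matched a GRE. The E-box CACGTG, a site of clock and other factors found in 6.02% of windows, occurred at 2 places before Klf15 and at 1 place before Fkbp5 and before the Sgk1 start shown. These are letter matches in a short window and no measure of binding. Zbtb16 had no entry, and sequence was not used for Nr3c1.

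In the RefSeq annotation Fkbp5 spans chr17:28398753-28486149, Tsc22d3 chrX:140539528-140600522, Zbtb16 chr9:48651797-48836225, Klf9 chr19:23141226-23168129 and Klf15 chr6:90461043-90491803. Sgk1 spans chr10:21882184-21999903, Ddit4 chr10:59949675-59951770, Mt2 chr8:94172618-94173567 and Mt1 chr8:94178883-94180327. Mt2 and Mt1 are neighbours with 5315 bases between their annotated ends. The windows above lie just before the first base of the transcript they belong to. Where a start site lies after the annotated start of its gene, the window can fall inside the span of the gene. This holds for the Sgk1 window shown and for most of the Mt1 window, whose start site is at base 94179089.

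The libraries held 21047242 to 24919377 counts in BAT and 23050918 to 23425284 in muscle, so a count of 3 equals 0.12 to 0.143 CPM, where CPM are counts scaled to the library total. All 10 brown adipocyte markers were detected in BAT, with summed levels of 11653 to 16956 CPM, and the muscle fibre markers summed to 126647 to 211853 CPM in muscle. Muscle fibre transcripts also varied strongly within BAT, with summed levels of 3.38 to 762 CPM in control, 22.3 to 1652 in CR, 6.52 to 4372 in EX and 1166 to 7128 in CREX libraries. Fibroblast markers summed to 254 to 302 CPM in control and 145 to 176 CPM in CR libraries of BAT, and to 310 to 393 and 223 to 281 CPM in muscle. The part of these mixtures in the results below was not tested beyond the fits with a marker score that are given beside single genes. The score is the mean log2 level of the muscle fibre markers in BAT and of the 10 brown adipocyte markers in muscle. In muscle, 4 of these 10 were detected in every control, 8 in every CR, 7 in every EX and 7 in every CREX library. The adipocyte score in muscle thus rests partly on genes near 0 counts. In bulk tissue, fewer cells of a type and less RNA per cell cannot be told apart.

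Calorie restriction moved 4 to 8 of the 10 genes past the thresholds, depending on the tissue and on training, and treadmill running moved 0. A gene is called upregulated or downregulated where the fold change exceeded 1.5 and the adjusted p was under 0.05 (edgeR's quasi-likelihood test, Benjamini-Hochberg adjustment over all tested genes). In BAT, 6 members were upregulated and 1 downregulated in CR compared to control mice, against 3.87% and 6.86% of all tested genes. In CREX compared to EX mice, 4 were upregulated and 0 downregulated in BAT, where all tested genes gave 1.86% and 2.63%. DESeq2 also called 4 members there, and 809 of all genes. In muscle, 8 were upregulated and 0 downregulated in CR compared to control, beside 4.27% and 5.32% of all genes. In CREX compared to EX of muscle, 6 were upregulated and 0 downregulated, beside 3.7% and 5.17%. All 10 had an unadjusted p under 0.05, and 1957 of all 13112 tested genes had this together with a fold above 1.5. DESeq2 called 8 and 7 members in these 2 muscle comparisons, and 1358 and 1512 of all genes. The median log2 fold change of the 10 genes was 1.22 and 0.97 in BAT and 1.28 and 1.61 in muscle, while the median over all tested genes lay between -0.00204 and 0.00499. The CR to control and CREX to EX comparisons use separate mice.

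Fkbp5, Tsc22d3 and Zbtb16 were upregulated in all 4 of these comparisons, and Klf9 was called in none. Of the 25 calls, 15 held without each library in turn and 10 were lost without at least 1 library, as given gene by gene below.

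**Figure D1:**
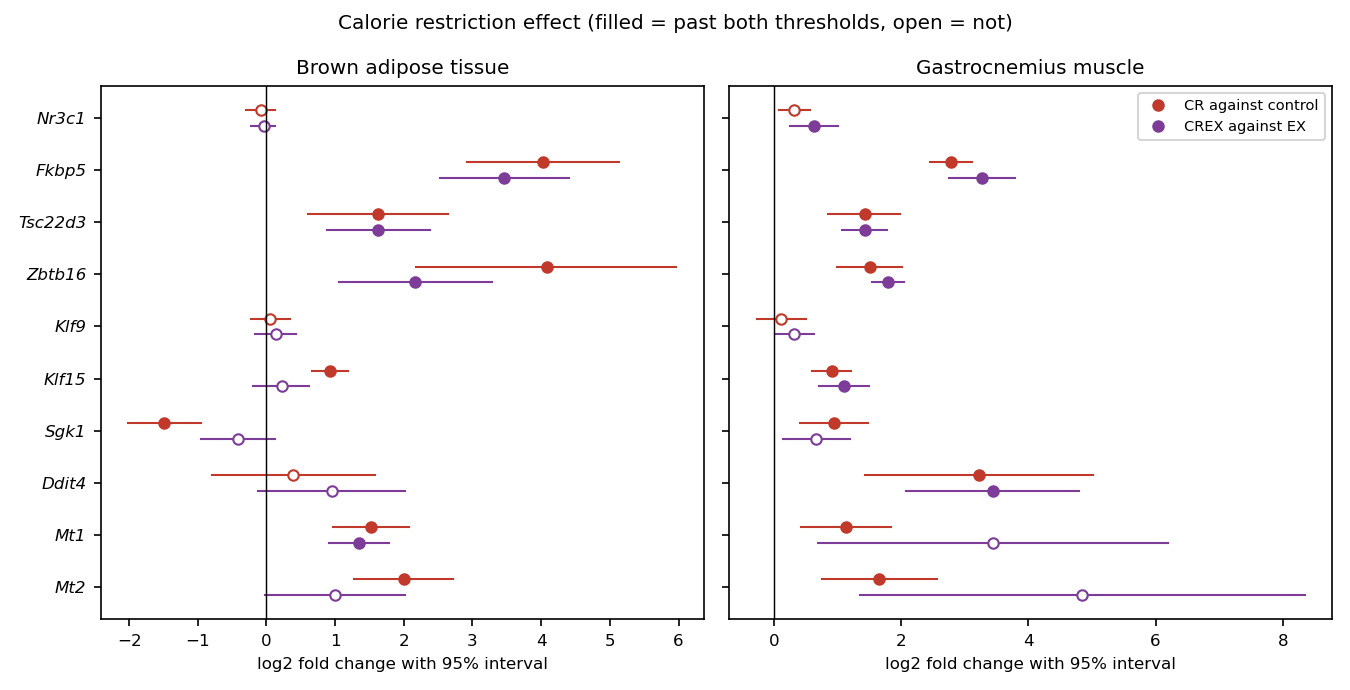
Log2 fold change of each gene with its 95% interval, in BAT (left) and gastrocnemius muscle (right), for CR against control (red) and CREX against EX (purple), where filled points passed both thresholds. Fkbp5 lies at 4.03 and 3.46 in BAT and at 2.78 and 3.27 in muscle, Sgk1 lies below 0 in BAT and above 0 in muscle, and Klf9 stays near 0.

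Averaged over sedentary and trained mice in 1 fit of all 4 groups of a tissue, restriction upregulated 5 members and downregulated 1 in BAT, against 3.96% and 7.83% of all genes, and upregulated 8 and downregulated 0 in muscle, against 5.99% and 8.13%. In BAT, Klf15 had an adjusted p of 0.00252 but a log2 effect of 0.57, just under the fold threshold of 0.585 on this scale, and it passed without CR replicate 3 or 4, control replicate 3, CREX replicate 2 or EX replicate 4 (log2 effect 0.60 to 0.67). Nr3c1 had an adjusted p of 0.004 and a log2 effect of 0.48 in muscle and was likewise not called.

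Nr3c1 encodes the receptor itself. In BAT its level was 62.5, 64.5 and 59.8 CPM in the control libraries and 66.1, 48.8, 56.2 and 63.7 CPM in the CR libraries, and the groups overlapped. Its log2 fold change in BAT was -0.08 (95% interval -0.30 to 0.13) for CR compared to control and -0.04 (-0.22 to 0.13) for CREX compared to EX. In muscle it was 39.8, 52.7, 45.4 and 51.2 CPM in control, 59.3, 59.4 and 58.2 CPM in CR, 49.3, 54.5, 46.1 and 55 CPM in EX, and 56.3, 84.7 and 96.8 CPM in CREX. Every restricted muscle library lay above every unrestricted one, by little in CR and CREX replicate 1. The call in CREX compared to EX (log2 fold change 0.63 ± 0.169 SE, adjusted p = 0.0386) was lost without CREX replicate 2 or 3 or without any 1 of the 4 EX libraries (adjusted p from 0.0741 to 0.127). In CR compared to control the log2 fold change was 0.32 ± 0.112 (adjusted p = 0.0824).

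Fkbp5 encodes the immunophilin FKBP51, which binds the receptor complex and restrains it. In BAT its level was 6.64, 1.73 and 3.42 CPM in control and 1.99, 4.85, 5.47 and 8.05 CPM in EX. In CR libraries it was 70.8, 65.2, 68.7 and 50 CPM, and in CREX libraries 50.6, 71.2, 61.7 and 42.9 CPM. The restricted and unrestricted libraries of BAT were separated by a wide gap, while CR and CREX overlapped, as did control and EX. Fkbp5 rose 16.3-fold in CR compared to control (log2 fold change 4.03 ± 0.446, adjusted p = 0.0034), and in CREX compared to EX by 3.46 ± 0.397 on the log2 scale (adjusted p = 0.00505).

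Muscle had the same order of groups for Fkbp5. The control libraries gave 15.5, 13.1, 14.6 and 14.1 CPM and the CR libraries 119, 79.7 and 95.6 CPM. The EX libraries gave 18.1, 10.6, 10.7 and 10.2 CPM and the CREX libraries 99.1, 147 and 114 CPM. No restricted library overlapped an unrestricted one. The log2 fold changes were 2.78 ± 0.147 (adjusted p = 9.52e-06) and 3.27 ± 0.229 (adjusted p = 0.000514). Each of the 4 Fkbp5 calls was kept without each library in turn. Both BAT calls were also kept with the muscle fibre score as a covariate, and the muscle CR call with the adipocyte score.

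Tsc22d3 encodes GILZ, a leucine zipper protein that dampens inflammatory transcription factors. In BAT it was 43.9, 16.0 and 34.7 CPM in control, 132, 104, 75.8 and 77.4 CPM in CR, 13.6, 26.4, 32.3 and 32 CPM in EX, and 57, 73.7, 109 and 85.8 CPM in CREX. Control replicate 2 and EX replicate 1 were the lowest of their groups, and the restricted groups stayed above the others. The log2 fold change was 1.63 in both comparisons, with SE 0.41 and adjusted p = 0.0445 for CR and SE 0.318 and adjusted p = 0.0273 for CREX. The CR call was lost without any 1 library other than control replicate 2 (adjusted p from 0.0564 to 0.11) and with the muscle fibre score as covariate (log2 fold change 1.65, adjusted p = 0.0582). The CREX call was lost without CREX replicate 2, 3 or 4 or EX replicate 2 or 3 (adjusted p from 0.0521 to 0.0753).

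In muscle, Tsc22d3 was 144, 75, 69.7 and 118 CPM in control, 331, 214 and 273 CPM in CR, 132, 118, 94.9 and 88.9 CPM in EX, and 253, 333 and 289 CPM in CREX. Controls 1 and 4 were higher than controls 2 and 3, yet all lay under the lowest restricted library. The log2 fold change was 1.43 in both muscle comparisons (SE 0.255 and 0.158, adjusted p = 0.0054 and 0.00212), and both calls held without each library in turn.

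Zbtb16 encodes the zinc finger repressor PLZF. BAT control libraries gave 12.1, 4.15 and 5.16 CPM and CR libraries 182, 159, 42.8 and 95 CPM, with CR replicate 3 well under the others. EX libraries gave 7.76, 18.7, 8.83 and 26.3 CPM and CREX libraries 68.9, 53.6, 103 and 52.9 CPM. Restricted and unrestricted BAT libraries did not overlap, but the spread within groups was large. The log2 fold change was 4.08 ± 0.747 for CR (adjusted p = 0.0198) and 2.17 ± 0.465 for CREX (adjusted p = 0.0394). The CR call was lost without control replicate 2 or 3 (adjusted p = 0.0758 and 0.0746), and the CREX call without any 1 library other than EX replicate 4 (adjusted p from 0.0641 to 0.0892).

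Muscle gave tighter values for Zbtb16. It was 21.2, 30.2, 39.8 and 43.3 CPM in control, 110, 72.6 and 104 CPM in CR, 34.3, 34.8, 29.9 and 27.3 CPM in EX, and 116, 109 and 105 CPM in CREX, and the restricted groups stood clear of the others. The log2 fold changes were 1.51 ± 0.23 (adjusted p = 0.00248) and 1.80 ± 0.111 (adjusted p = 0.000275), and both calls were kept without each library in turn.

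Klf15 encodes a Krüppel-like factor that promotes amino acid breakdown and gluconeogenesis. In BAT it was 34.6, 29.3 and 36.8 CPM in control and 72.6, 70.2, 55.5 and 56.6 CPM in CR, groups that did not overlap (log2 fold change 0.92 ± 0.121, adjusted p = 0.000956). The trained groups lay closer together, at 32.7, 43.2, 40.3 and 62.8 CPM in EX and 55.0, 46.6, 53.8 and 53.3 CPM in CREX. EX replicate 4 was above every CREX library, and the log2 fold change was 0.22 with a 95% interval of -0.19 to 0.62. In muscle Klf15 was 40.9 to 43.1 CPM in control, 64.6 to 97.1 in CR, 25.9 to 44 in EX and 69.6 to 87 in CREX. It rose in both muscle comparisons, by 0.91 ± 0.139 (adjusted p = 0.00257) and 1.10 ± 0.174 (adjusted p = 0.00863) on the log2 scale.

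Klf9, a related factor that responds to glucocorticoids and thyroid hormone, passed in no comparison. Its BAT level was 48.8 to 67 CPM in control, 56.2 to 74.1 in CR, 41.7 to 60.8 in EX and 49.7 to 67.2 in CREX. In muscle it was 72.2 to 114 CPM in control, 74.5 to 107 in CR, 68.8 to 97.2 in EX and 90.5 to 115 in CREX. All groups overlapped. The log2 fold changes with restriction were 0.05 (95% interval -0.23 to 0.34) and 0.14 (-0.16 to 0.43) in BAT, and 0.12 (-0.27 to 0.50) and 0.32 (0.02 to 0.63) in muscle.

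**Figure D2:**
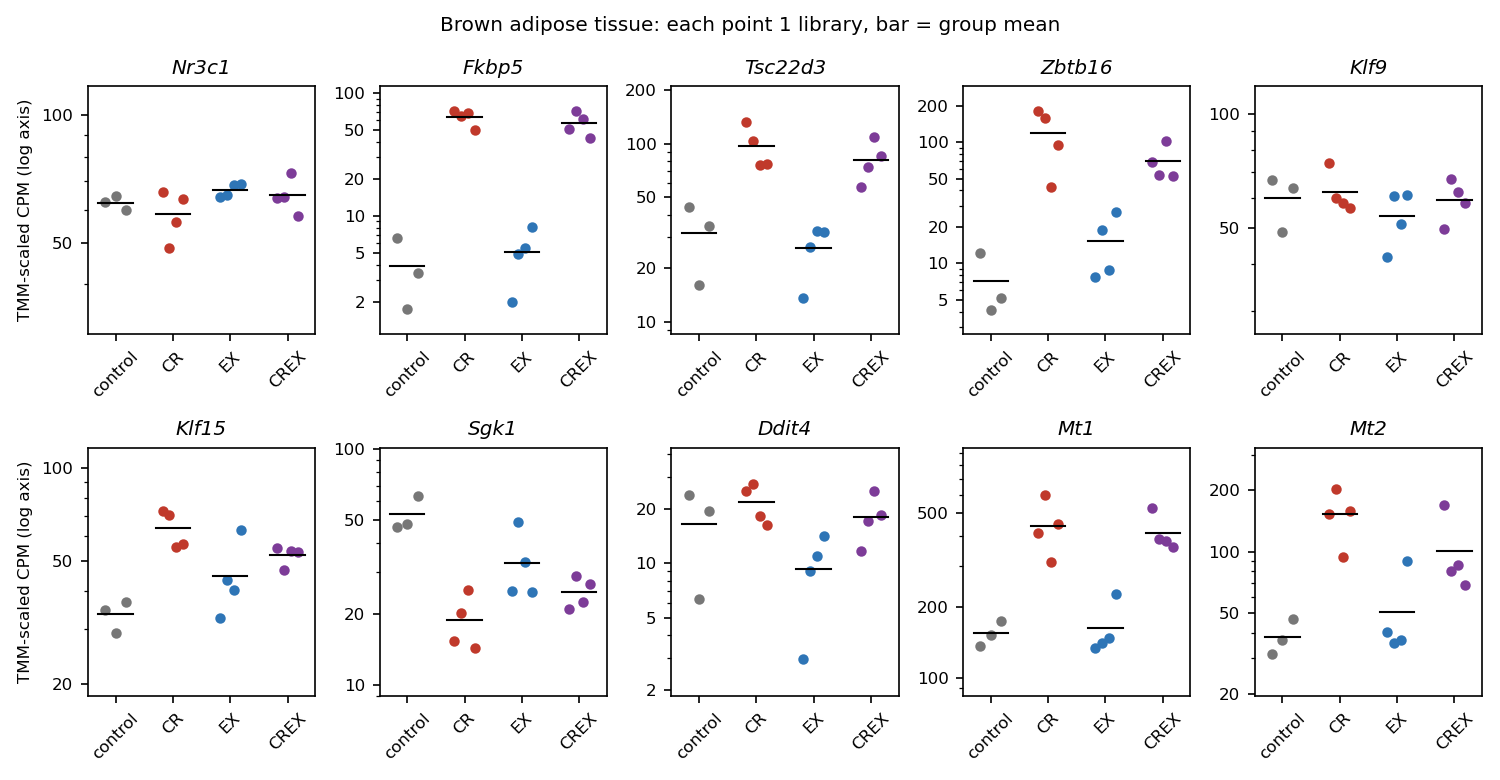
Levels of the 10 genes in BAT as TMM-scaled CPM on log axes, with 1 point per library and a bar at the group mean for 3 control, 4 CR, 4 EX and 4 CREX libraries. Fkbp5 and Zbtb16 show the widest gap between restricted and unrestricted groups, and Sgk1 is lowest in CR.

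Sgk1, a kinase that controls ion transport and acts beside Akt, was the 1 member downregulated in any comparison. In BAT it was 46.9, 48.2 and 63.5 CPM in control and 15.4, 20.2, 25.3 and 14.4 CPM in CR, with every CR library under every control. The log2 fold change was -1.49 ± 0.221 (adjusted p = 0.00526), and the call was kept without each library in turn. EX libraries gave 25, 49.1, 33.2 and 24.7 CPM and CREX libraries 21, 29.1, 22.4 and 26.7 CPM. These groups overlapped, with a log2 fold change of -0.42 (95% interval -0.96 to 0.12).

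In muscle, Sgk1 moved the other way. Control libraries gave 146, 87.9, 73.6 and 158 CPM and CR libraries 210, 239 and 223 CPM. EX libraries gave 165, 165, 140 and 131 CPM and CREX libraries 252, 322 and 143 CPM, so CREX replicate 3 fell among the EX libraries. The call in CR compared to control (log2 fold change 0.95 ± 0.241, adjusted p = 0.0272) was lost without any 1 CR library or without control replicate 2 or 3 (adjusted p from 0.0569 to 0.0826), and with the adipocyte score as covariate (log2 fold change 0.94, adjusted p = 0.0843). In CREX compared to EX the log2 fold change was 0.67 ± 0.234 (adjusted p = 0.0883), and without CREX replicate 3 it was 0.93 (adjusted p = 0.0126).

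Ddit4 encodes REDD1, an inhibitor of mTORC1 and so of protein synthesis. In BAT its level was 23.9, 6.32 and 19.3 CPM in control, 25, 27.2, 18.3 and 16.3 CPM in CR, 2.96, 9.01, 11 and 14.1 CPM in EX, and 11.7, 17, 24.9 and 18.4 CPM in CREX. The groups overlapped in both comparisons, and the log2 fold changes were 0.39 (95% interval -0.80 to 1.58) and 0.95 (-0.13 to 2.02).

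Muscle showed a large rise of Ddit4. It was 17.3, 3.02, 2.44 and 13.9 CPM in control and 150, 36.9 and 70 CPM in CR. It was 12, 8.41, 5.2 and 2.14 CPM in EX and 44.4, 87.9 and 94.4 CPM in CREX. No restricted muscle library overlapped an unrestricted one, although controls 1 and 4 were several times controls 2 and 3. The log2 fold changes were 3.23 ± 0.765 (adjusted p = 0.0321) and 3.44 ± 0.566 (adjusted p = 0.0168). The first call was lost without CR replicate 1 (2.53, adjusted p = 0.146), CR replicate 3 (0.0829) or control replicate 4 (0.054), and with the adipocyte score as covariate (2.26, adjusted p = 0.136). The second was lost without CREX replicate 2 (0.0565) or CREX replicate 3 (0.057).

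Mt1 and Mt2 encode metallothioneins, small proteins that bind zinc and copper and are induced by metals as well as by glucocorticoids. In BAT, Mt1 was 136, 152 and 175 CPM in control, 412, 596, 311 and 450 CPM in CR, 134, 140, 148 and 226 CPM in EX, and 525, 388, 381 and 360 CPM in CREX. Restricted libraries all lay above unrestricted ones, and Mt1 rose by 1.52 ± 0.23 (adjusted p = 0.00612) and 1.35 ± 0.192 (adjusted p = 0.00623) on the log2 scale. Mt2 in BAT was 31.4, 36.7 and 46.6 CPM in control and 154, 203, 94.2 and 159 CPM in CR, a fold change of 3.99 (SE 0.295 on the log2 scale, adjusted p = 0.0069). In EX it was 40.4, 35.7, 36.8 and 89.6 CPM and in CREX 170, 80.9, 85.7 and 69 CPM, where EX replicate 4 fell among the CREX libraries. The fold change of 2 (SE 0.429 on the log2 scale) did not pass (adjusted p = 0.205), while with the muscle fibre score as covariate it was higher, at 1.35 on the log2 scale, and passed (adjusted p = 0.0277). EX replicate 4 had a summed muscle fibre marker level of 6.52 CPM, against 1364 to 4372 CPM in the other EX libraries.

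In muscle, Mt1 was 28.7, 15.8, 18.7 and 14.8 CPM in control, 63.5, 26.4 and 37.9 CPM in CR, 23.5, 12.8, 15.5 and 11.2 CPM in EX, and 30, 35 and 449 CPM in CREX. Mt2 was 7.27, 1.86, 2.4 and 3.53 CPM in control, 14, 8.18 and 13.5 CPM in CR, 5.43, 3.12, 2.35 and 3.45 CPM in EX, and 10.2, 15.6 and 283 CPM in CREX. CREX replicate 3 stood far above all other muscle libraries for both genes. In CR compared to control, Mt1 rose by 1.14 ± 0.314 (adjusted p = 0.042) and Mt2 by 1.66 ± 0.4 (adjusted p = 0.0257) on the log2 scale. The liver transcript Alb was also higher in the CR than in the control libraries of muscle, as given with Pck1 below. The part of liver transcripts in these rises was not tested. The Mt1 call was lost without CR replicate 1 or 3 or control replicate 2, 3 or 4 (adjusted p from 0.0706 to 0.139, with a log2 fold change of 0.72 without CR replicate 1), and the Mt2 call without CR replicate 1 or 3 or control replicate 3 or 4 (adjusted p from 0.0622 to 0.121). With the adipocyte score as covariate, the log2 fold change was 0.56 for Mt1 (adjusted p = 0.167) and 1.13 for Mt2 (adjusted p = 0.101). In 1 fit on all groups of muscle it was 1.13 for Mt1 (adjusted p = 0.404) and 1.65 for Mt2 (adjusted p = 0.333). In CREX compared to EX the log2 fold changes were 3.45 ± 1.11 (adjusted p = 0.0957) and 4.85 ± 1.39 (adjusted p = 0.0766), and without CREX replicate 3 they fell to 1.04 and 1.84, of which the Mt2 value passed (adjusted p = 0.0197). Mt2 also passed without CREX replicate 1 (5.39, adjusted p = 0.0388). Both passed in 1 fit on all groups of muscle, at 3.47 (adjusted p = 0.019) and 4.87 (adjusted p = 0.0121), and without robust estimation (adjusted p = 0.034 and 0.0237).

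CREX replicate 3 of muscle also stood apart for genes chosen after its values were seen. Socs3, a feedback inhibitor of cytokine signalling, was 218 CPM there and 1.37 and 1.56 CPM in the other CREX libraries, and the immediate early gene Nr4a3 was 264 CPM against 2.25 and 2.83 CPM. Of the other members, Nr3c1 and Ddit4 were also highest there among the CREX libraries, at 96.8 and 94.4 CPM, while Sgk1, Klf9 and Zbtb16 were lowest there, at 143, 90.5 and 105 CPM, and Fkbp5, Tsc22d3 and Klf15 lay between the others.

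**Figure D3:**
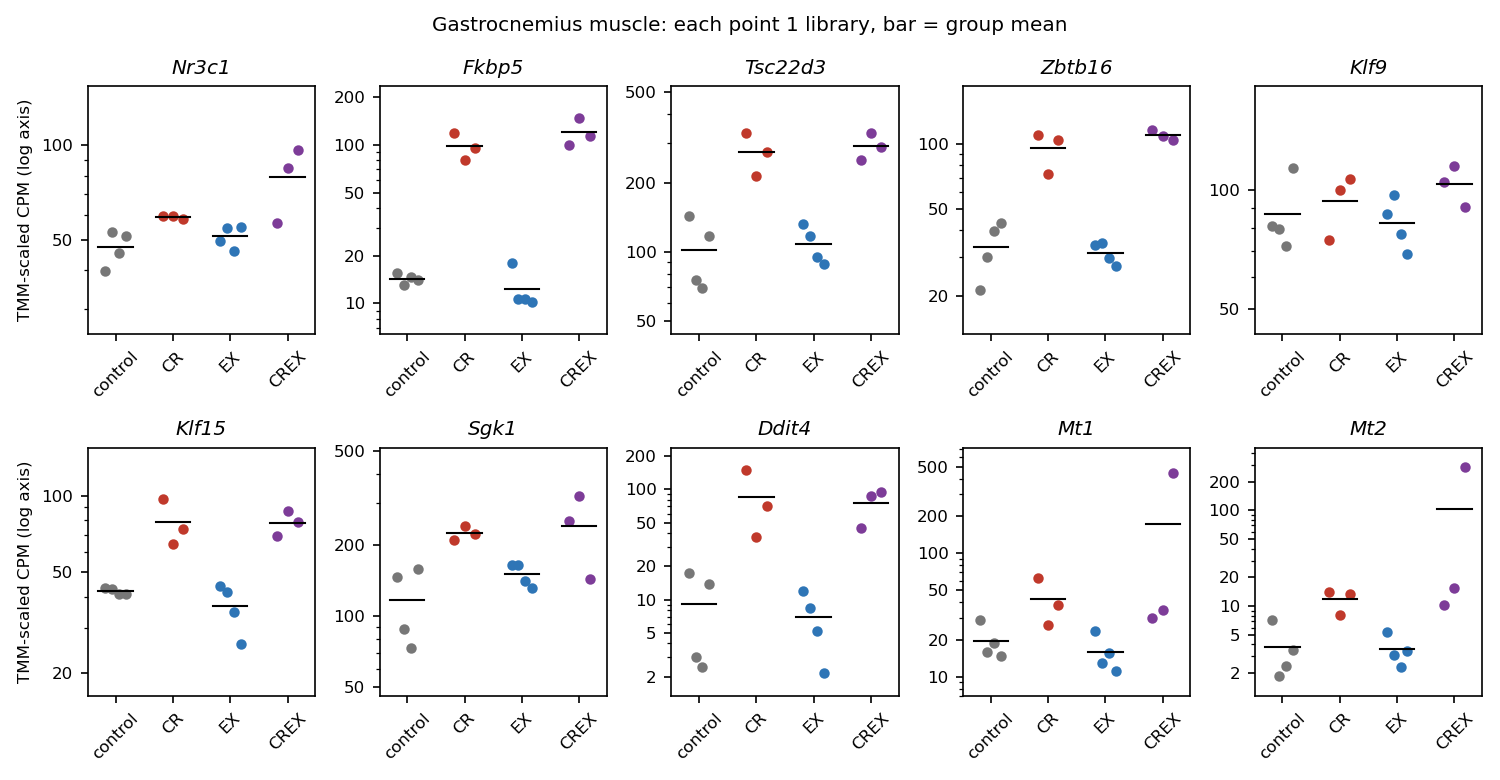
Levels of the 10 genes in gastrocnemius muscle as TMM-scaled CPM on log axes, with 1 point per library and a bar at the group mean for 4 control, 3 CR, 4 EX and 3 CREX libraries. Fkbp5, Tsc22d3, Zbtb16, Klf15 and Ddit4 separate restricted from unrestricted libraries, and Nr3c1 and Mt2 do so by little. One CREX library lies far above the rest for Mt1 (449 CPM) and Mt2 (283 CPM).

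Treadmill running was compared in the same way, with and without restriction. In EX compared to control, 0 members were called in BAT and 0 in muscle, where 0% and 0.0775% of all tested genes were called. In CREX compared to CR, 0 members were called in either tissue, against 0.00763% of genes in BAT and 0% in muscle. DESeq2 called 0 members in each of these 4 comparisons. Of all genes it called 39 in BAT and 52 in muscle for EX compared to control, and 30 and 17 for CREX compared to CR. At an unadjusted p under 0.05, edgeR found 2 of the 40 pairs of gene and comparison, Sgk1 in BAT for EX compared to control (log2 fold change -0.67) and Klf15 in BAT for CREX compared to CR (-0.29), and the smallest adjusted p was 0.564. Averaged over both diets, edgeR and DESeq2 called 0 members in each tissue, against 0.00718% and 0.0294% of genes by edgeR and 81 and 29 genes by DESeq2. The unadjusted p of edgeR was under 0.05 for 0 members in BAT and for 1 in muscle, Nr3c1 (log2 effect 0.27). For Fkbp5 the 95% interval of EX compared to control reached from -1.04 to 1.81 in BAT and from -0.57 to 0.15 in muscle.

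Whether running altered the restriction effect was asked by the interaction of both factors. No member passed in BAT or in muscle, where 0% of all genes passed in each tissue. DESeq2 also called 0 members, and 4 of all genes, in each tissue. In BAT, 3 members had an unadjusted p under 0.05, and 279 of all 13922 tested genes had this together with a fold above 1.5. The restriction effect in trained mice minus that in sedentary mice was 1.07 ± 0.349 for Sgk1, -0.71 ± 0.237 for Klf15 and -1.90 ± 0.798 for Zbtb16 on the log2 scale. All 3 effects were nearer 0 in the trained mice, but the smallest adjusted p was 0.824. In muscle, 0 members had an unadjusted p under 0.05. The calls of Klf15, Sgk1 and Mt2 in sedentary but not in trained BAT are therefore not shown to differ.

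The restriction effect was also compared between tissues, in a fit of the sedentary libraries and another of the trained libraries of both tissues. These fits treated all libraries as independent, although BAT and muscle libraries may come from the same mice. Among sedentary mice, 1 member differed, against 6.29% of all genes. Sgk1 had a log2 effect 2.42 ± 0.372 higher in muscle than in BAT (adjusted p = 0.00226), and this call was kept without each library in turn. Fkbp5 and Zbtb16 had larger estimates in BAT, with differences of -1.25 ± 0.415 (adjusted p = 0.0894) and -2.56 ± 0.719 (adjusted p = 0.0565). The DESeq2 test called both, and it called 1210 of all genes. Fkbp5 passed in edgeR without BAT control replicate 1 (adjusted p = 0.00325), and Zbtb16 without BAT CR replicate 3 (0.0106) or BAT control replicate 1 (0.032). The difference for Ddit4 was 2.83 ± 1 (adjusted p = 0.121).

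Among trained mice, 0 members differed in edgeR, against 4.57% of all genes. An unadjusted p under 0.05 was found for 5 members, and 1744 of all 14410 tested genes had this together with a fold above 1.5. DESeq2 called 4, namely Nr3c1, Klf15, Sgk1 and Ddit4, where it called 996 of all genes, and all 4 had a higher estimate in muscle. Their edgeR differences were 0.67 ± 0.192, 0.88 ± 0.268, 1.08 ± 0.363 and 2.49 ± 0.748 on the log2 scale, with adjusted p from 0.0536 to 0.0987. Without muscle CREX replicate 1, edgeR called 4 members, Nr3c1, Klf15, Ddit4 and Mt2. Without BAT EX replicate 1 it called Klf15 and Ddit4, and without muscle CREX replicate 3 it called Sgk1.

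The 10 genes also varied among libraries of the same group, and a pair of them did so closely together. After each group mean was taken off, Tsc22d3 and Ddit4 had a Pearson correlation of 0.96 over the 15 BAT libraries and of 0.96 over the 14 muscle libraries (Spearman 0.91 and 0.94). Ddit4 ranked 1 among all 13921 other genes of BAT and 1 among 13609 of muscle by this measure. Without the 2 libraries in which Tsc22d3 was farthest from the median, the correlations were 0.92 and 0.95. Ddit4 itself was not called in BAT. The pair was singled out after the values were seen, and the points share their library, depth and scaling.

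**Figure D4:**
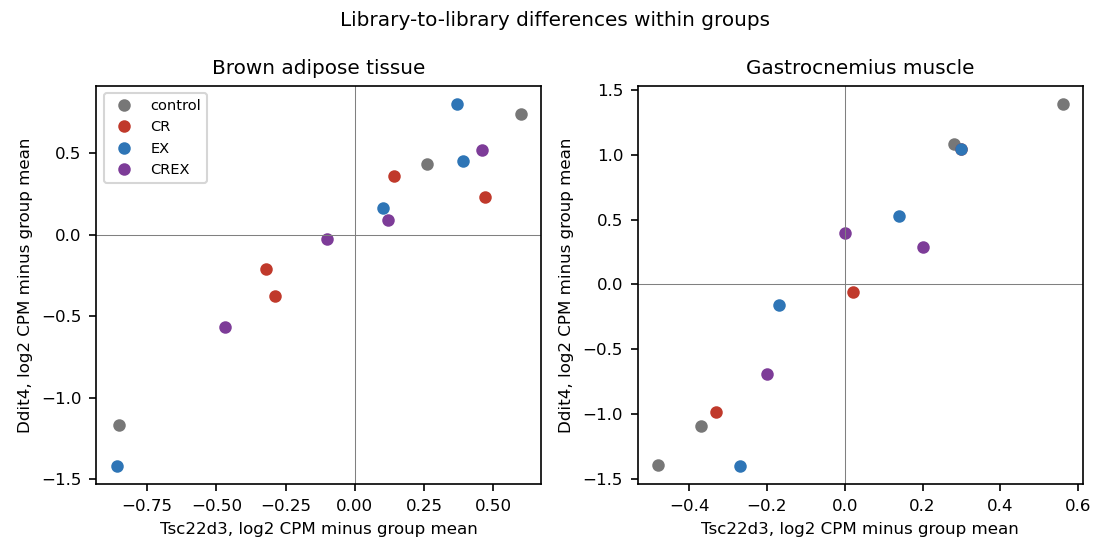
Each library's deviation from its group mean in log2 CPM, for Tsc22d3 (horizontal) and Ddit4 (vertical), in BAT (left, 15 libraries) and muscle (right, 14 libraries), coloured by group. The points of all 4 groups fall along a line in both tissues, with a correlation of 0.96 in each.

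The neighbours Mt1 and Mt2 had correlations of deviations of 0.95 in BAT and 0.94 in muscle, of which the second was 0.79 without its 2 most distant libraries. Fkbp5 and Tsc22d3 gave 0.81 in BAT and 0.61 in muscle, and 0.57 and 0.59 without the 2 most distant libraries. Across the 45 pairs of members the median correlation of deviations was 0.21 in BAT and 0.23 in muscle, with 18 and 10 pairs over 0.5. With group means left in, the medians were 0.48 and 0.70. In control replicate 2 and EX replicate 1 of BAT, Fkbp5, Tsc22d3, Zbtb16, Klf9, Klf15 and Ddit4 were each at the lowest level of their group.

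The genes whose level followed Fkbp5 most closely over all libraries of a tissue were not members. In BAT they were Morc3, Hif3a, Med20, Cyp4b1 and Wee1, with correlations of 0.965 to 0.977 over 15 libraries. In muscle they were Ppp1r3c, Foxo3, Hif3a, Glul and Gm27252, with 0.974 to 0.983 over 14 libraries. These values contain the restriction effect itself, since it separates the libraries. Of the members, Tsc22d3 was closest in BAT at 0.941 (rank 23 among all genes), followed by Zbtb16 at 0.932 (rank 36) and Mt1 at 0.919 (rank 61). Sgk1 and Nr3c1 had negative correlations in BAT, at -0.718 and -0.235. In muscle, Zbtb16 gave 0.952 (rank 20), Klf15 0.951 (rank 21) and Tsc22d3 0.941 (rank 41).

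A further list of 30 genes known to be induced by glucocorticoids was read beside the members. In BAT, 9 rose and 2 fell of 28 tested in CR compared to control, where 3.87% of all tested genes rose and 6.86% fell. In CREX compared to EX, 8 rose and 0 fell of 29, beside 1.86% and 2.63% of all genes. In muscle, 12 rose and 0 fell of 30 in CR compared to control, beside 4.27% and 5.32% of all genes. In CREX compared to EX of muscle, 12 rose and 0 fell of 29, beside 3.7% and 5.17%. The list's median log2 fold changes were 0.51 and 0.44 in BAT and 0.84 and 0.99 in muscle. Hif3a, Glul, Foxo3, Sesn1 and Fam107a rose in all 4 comparisons.

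Hif3a, a hypoxia-inducible factor subunit, was 0.0825 to 0.262 CPM in control and 1.2 to 2.18 CPM in CR libraries of BAT, a low level of few counts, and 0.588 to 0.966 and 4.5 to 6.1 CPM in muscle. Glul, the glutamine synthetase, was 926 to 1176 CPM in control and 2529 to 2854 CPM in CR libraries of BAT, and 106 to 181 and 644 to 927 CPM in muscle. Foxo1, a factor that drives fasting and atrophy genes, was 13 to 16.3 CPM in control and 65.3 to 80.7 CPM in CR libraries of muscle (log2 fold change 2.37 ± 0.121, adjusted p = 9.52e-06), while in BAT its log2 fold change was -0.07 ± 0.22. Errfi1, a feedback inhibitor of EGF receptor signalling, fell by 1.04 on the log2 scale in BAT (SE 0.163, adjusted p = 0.00277), and Dusp1, a phosphatase that switches off MAP kinases, fell by 2 on the log2 scale (SE 0.363, adjusted p = 0.0148).

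Pck1, which makes phosphoenolpyruvate for gluconeogenesis, was 0.186 to 0.915 CPM in control and 6.58 to 17.3 CPM in CR libraries of muscle (log2 fold change 4.18 ± 0.416, adjusted p = 0.000391). The liver transcript Alb was 27.9 to 153 CPM in those CR libraries, 34.9 CPM in CREX replicate 1 and at most 3.21 CPM in the other muscle libraries, and the adipocyte transcript Adipoq was 0.869 to 13.4 CPM in CR and 0 to 1.75 CPM in control. Their part in the Pck1 values was not tested, nor was that of liver transcripts in the muscle values of Glul, Mt1 and Mt2.

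**Figure D5:**
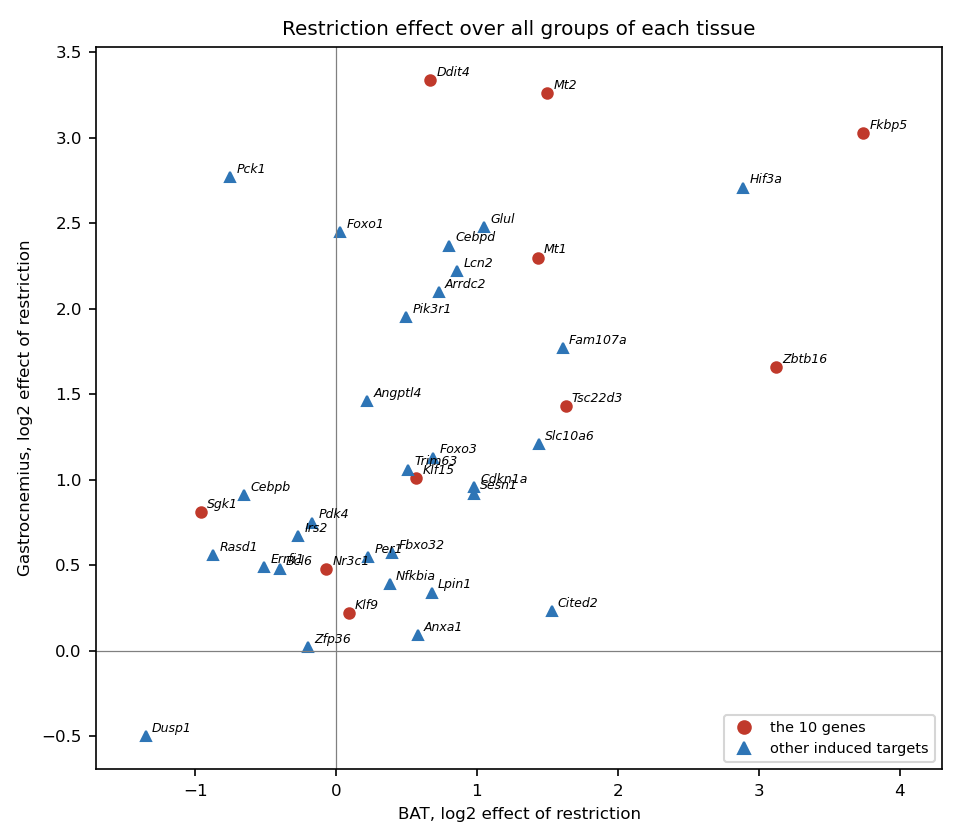
Log2 effect of restriction over all 4 groups of a tissue, in BAT (horizontal) and muscle (vertical), for the 10 genes (red circles) and for other genes known to be induced by glucocorticoids (blue triangles) tested in both tissues. Fkbp5 lies at 3.74 and 3.03, Sgk1 lies left of 0 at -0.96 and above 0 at 0.81, and Ddit4 at 0.67 and 3.34.

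Of 18 genes that carry, activate or assist the receptor, 17 were tested in each comparison, and not all of their results are reported here. Hsd11b1, the enzyme that regenerates active glucocorticoid inside cells, was 95.5, 112 and 126 CPM in control and 253, 318, 186 and 254 CPM in CR libraries of BAT. It rose there by 1.18 ± 0.184 (adjusted p = 0.00484) and in CREX compared to EX by 1.29 ± 0.153 (adjusted p = 0.00259) on the log2 scale, and every restricted BAT library exceeded every unrestricted one. In muscle its level was 3.8 to 8.4 CPM over all libraries, with log2 fold changes of 0.41 ± 0.197 and 0.49 ± 0.197 that did not pass. H6pd, which supplies the cofactor of that enzyme, rose by 0.67 ± 0.0954 in BAT (adjusted p = 0.00115) and by 0.71 ± 0.109 (adjusted p = 0.00262) and 1.11 ± 0.179 (adjusted p = 0.00888) in muscle.

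In BAT CR compared to control, Nr3c2, the mineralocorticoid receptor that also binds corticosterone, fell by 0.90 on the log2 scale (SE 0.25, adjusted p = 0.032). In BAT CREX compared to EX, Hsd11b1 was the gene of the list that passed, and in both muscle comparisons H6pd was.

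Of 7 other genes of the metal response, Slc39a14, a zinc importer, rose in BAT by 0.66 ± 0.103 (adjusted p = 0.00181) and 0.79 ± 0.153 (adjusted p = 0.0163). Slc30a1, a zinc exporter that metals induce, fell in BAT CR compared to control by 0.61 on the log2 scale (SE 0.179, adjusted p = 0.0352), while the metallothioneins rose in the same libraries. In muscle the list had median log2 fold changes of -0.01 and 0.37 over 6 tested genes.

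Of 10 inflammatory genes known to be repressed by glucocorticoids, 2 were abundant enough to test in the 4 restriction comparisons. Only 1 of the 2 passed in BAT CR compared to control and only 1 in muscle CREX compared to EX. In BAT CREX compared to EX and in muscle CR compared to control, 0 passed. The adhesion molecule Icam1 fell by 0.86 in BAT CR compared to control (SE 0.156, adjusted p = 0.0041), and Vcam1 fell by 1.11 in muscle CREX compared to EX (SE 0.249, adjusted p = 0.0224). Both are also expressed by endothelial cells, whose markers summed to 329 to 366 CPM in control and 233 to 288 CPM in CR libraries of BAT, and to 238 to 300 CPM in EX and 107 to 215 CPM in CREX libraries of muscle. The part of these cells was not tested.

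Clock genes moved in the same comparisons, and the hour at which each mouse was killed is not in the labels. Of the clock list, 5 rose and 2 fell of 15 tested in BAT CR compared to control, and 1 rose and 2 fell in CREX compared to EX. Of all tested genes, 3.87% rose and 6.86% fell in the first comparison and 1.86% and 2.63% in the second. In muscle, 2 rose and 5 fell and 1 rose and 3 fell of 15, beside 4.27% and 5.32% and 3.7% and 5.17% of all genes. Nr1d1, a repressor of the clock loop, fell in all 4 comparisons, by 1.90, 2.30, 2.03 and 2.10 on the log2 scale (adjusted p from 5.34e-06 to 0.0131). Cry1 rose in BAT by 2.09 ± 0.18 (adjusted p = 0.000152) and 1.54 ± 0.158 (adjusted p = 0.00108). Per2, which is also a receptor target, rose in CR compared to control by 1.65 ± 0.363 in BAT (adjusted p = 0.0285) and by 1.82 ± 0.159 in muscle (adjusted p = 0.000166). The part of the time of day in the member levels was not tested.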

How the data were processed

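RNA was sequenced from BAT and gastrocnemius muscle of 29 samples, 1 library per mouse and tissue, grouped by the sample labels. Reads were 150 bp paired-end from a BGISEQ-500. The authors trimmed them with Trim Galore, aligned them to mm10 with STAR 2.7.10a and estimated transcript abundance with RSEM, and the deposited values are expected counts per gene symbol. The gene annotation is not given in the sources used here. RSEM shares reads between near-identical genes, so the Mt1 and Mt2 counts may be partly split, and the 27 symbols that a spreadsheet turned into dates hold no member.

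Expected counts were rounded to whole numbers. Each pair of groups was fitted in edgeR 4.0.16 with TMM scaling, filterByExpr and the robust quasi-likelihood test. Main effects, interactions and tissue differences came from fits of all groups concerned. A call needed a Benjamini-Hochberg adjusted p under 0.05 over all tested genes and a fold above 1.5. Errors of fold changes are standard errors, intervals are 95%, and levels are TMM-scaled CPM. Correlations used log2 CPM with a prior count of 2 and carry no p. Totals of 21047242 to 24919377 counts per library cover counting error only, and p-values measure the spread between mice. Scripts were tested on simulated data.

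The members, the other lists and the tests were chosen with earlier results of these data known. Outside the members, up to 4 genes per list and tissue were named by the smallest p, and any others after their values were seen. Alternatives were DESeq2 1.42.0, other scaling, filters, no robust estimation, 1 fit per tissue, a replicate block, a covariate for muscle fibre markers in BAT or adipocyte markers in muscle, and each library left out. Same-numbered libraries were not taken as pairs, since no pair of groups had every correlation of their deviations over 0.1. The result of 1 other gene of the receptor list is not reported here.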

Additional observations from a re-analysis of the deposited data

Results flagged for a closer look

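Of 50 combinations of a member and a group of 4 libraries, 1 library stood far from the other 3 in 5 cases, where chance gives about 1 in 20, and 4 of the 5 are Mt1 and Mt2 in the same 2 libraries. Groups of 3 libraries, which are CR and CREX of muscle and control of BAT, were not screened. CREX replicate 3 of muscle, which stood far above the rest for Mt1 and Mt2, is therefore not among the 5. Fkbp5 was 18.1 CPM in EX replicate 1 of muscle and 10.2 to 10.7 CPM in the other EX libraries. Mt1 was 226 CPM in EX replicate 4 of BAT against 134 to 148 CPM in the others, and Mt2 was 89.6 CPM in the same library against 35.7 to 40.4 CPM. Mt1 was 525 CPM in CREX replicate 1 of BAT against 360 to 388 CPM in the others, and Mt2 was 170 CPM in the same library against 69 to 85.7 CPM. The restriction effect on Sgk1 in sedentary mice differed between tissues, by 2.42 on the log2 scale (adjusted p = 0.00226), since the gene fell in BAT and rose in muscle.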

How the results depend on the processing

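With 3 to 4 libraries per group, members near the thresholds gained or lost calls under several settings. Without each library in turn, 1677 of 1740 single-gene results kept their status as called or not called. That number includes results that had no call to keep. A call was lost in 45, gained in 18, and 0 called results changed direction. These losses fell in the CR to control and CREX to EX comparisons, where 10 of the 25 calls were lost without at least 1 library. Under the other settings the counts were 1238 of 1280, 22, 20 and 0. Uncalled values changed sign 90 and 13 times. Leaving out 1 library gave 2 to 4 members called in BAT CREX compared to EX, 4 to 8 in muscle CR compared to control, and 1 to 3 and 0 to 4 in the tissue difference of sedentary and trained mice. In BAT CREX, 2 were called without any 1 of CREX replicates 2, 3 and 4 or EX replicates 2 and 3. In muscle CR, 4 were called without CR replicate 1 or 3 and 5 without control replicate 3 or 4.

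With no filter on low counts, 2 members were called in BAT CREX compared to EX and 4 in muscle CR compared to control, and 1 in the trained tissue difference. With the adipocyte score as covariate, 4 were called in muscle CR compared to control. For the tissue difference, the sedentary count was 3 by DESeq2 and 2 with at least 10 counts in every library, with no robust estimation or with the replicate block, and the trained count was 4 by DESeq2 and 1 with at least 10 counts or with no robust estimation. The cause was not tested. The replicate block moved the count in BAT CR compared to control from 7 to 3, where the samples share only a number, and kept it within 1.5 times in the other pairs of groups.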
